A study of Mus musculus with 8 samples.

Results

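Levels of 10 transcripts that govern cell survival and cell cycle arrest were followed in dendritic cells (DCs) sorted from mouse mammary tumours. They were the BCL2 family genes Mcl1, Bcl2, Bcl2l1, Bcl2a1b, Bcl2a1d, Bcl2l11 and Bax, the caspase-8 regulator Cflar, the cyclin-dependent kinase (CDK) inhibitor Cdkn1a and the p53 ligase Mdm2. The genes were chosen by name, with earlier results of these data known. All 10 had a row among the 10825 genes of the count table, matched through their Ensembl IDs. A filter on low counts kept 9 of them, all but Bcl2a1d, among 6156 genes tested. The tumours were grown in wild-type (WT) mice from E0771, a line of mammary carcinoma cells of the mouse. DCs came from 4 samples of mice given DRQ, which the series' text calls an inhibitor of CD74, and from 4 samples of mice given PBS. Mice were dosed with either from day 10 on and the tumours harvested 3 weeks after injection of the cells. Mouse strain, age, dose and the markers used for sorting are not given in the sources used here. The labels do not say whether the samples came from separate mice or from pools, and a p-value then reflects sample-to-sample spread that could be technical in origin.

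Proteins of the BCL2 family decide at the mitochondrial outer membrane whether a cell enters apoptosis. MCL1, BCL2, BCL-XL (from Bcl2l1) and A1 (from the Bcl2a1 genes) hold back the pore-forming effectors BAX and BAK, while BH3-only proteins such as BIM (from Bcl2l11) neutralise these guardians or activate the effectors. The protein p21 (from Cdkn1a) stops the cell cycle by inhibiting CDKs and is, like MDM2, a classical product of p53 activity, although p53-independent signals also induce it. NF-kB signalling, which rises when DCs mature, is known to induce Bcl2a1 and Cflar. In B cells, stimulation of CD74 by its ligand MIF has been linked to NF-kB activity and survival.

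The Bcl2a1b and Bcl2a1d genes are near-identical copies on chromosome 9, so their counts have to be read together. Their coding sequences, each 519 bases long in the GENCODE M21 transcripts (build GRCm38), were identical at 513 positions (98.8%) and differed at 6. The first 120 coding bases of each are shown because they hold 3 of the 6 differences. The differing bases are in capitals and positions are counted from 1 at the A of the start codon. With the Bcl2a1b base first, the differences in this stretch were G4T, T48C and A94C.
Bcl2a1b: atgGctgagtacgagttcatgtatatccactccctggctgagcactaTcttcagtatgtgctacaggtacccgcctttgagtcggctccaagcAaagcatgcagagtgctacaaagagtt
Bcl2a1d: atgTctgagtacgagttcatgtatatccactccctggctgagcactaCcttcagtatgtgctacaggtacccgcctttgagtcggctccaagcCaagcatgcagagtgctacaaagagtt
Reads of a 3′-end method fall near the end of a transcript. Of the 241 windows of 60 bases in the last 300 bases of Bcl2a1b, 166 (68.9%) also occurred letter for letter in Bcl2a1d. The split of counts between the copies is therefore uncertain, and counts of Bcl2a1a, a further copy, were not analysed here.

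Cdkn1a has 2 annotated starts in the RefSeq table of promoters (build GRCm38.p6), and the 250 bases before the upstream one are shown because they hold the sequence through which p53 is known to bind this gene. The capitals mark a 20-base p53 full site, allowed at most 1 mismatch outside its core letters, and its bases lie 51 to 32 bases before the start (chr17:29090729-29090978, plus strand).
Cdkn1a: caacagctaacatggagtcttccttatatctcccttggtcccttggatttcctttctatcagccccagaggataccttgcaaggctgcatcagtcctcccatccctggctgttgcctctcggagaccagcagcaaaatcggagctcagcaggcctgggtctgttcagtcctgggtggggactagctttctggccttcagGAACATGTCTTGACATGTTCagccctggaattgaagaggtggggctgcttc
Such a site occurred in 18 of 32851 promoter windows of 300 bases (0.0548%), searched on both strands. Among the 14 windows of the 10 genes it occurred in this one alone, under a mismatch allowance chosen after the Cdkn1a sequence had been read. The NF-kB consensus decamer occurred in 4.51% of all windows and in 1 of these 14, at Bcl2l1. No binding was measured, so these matches describe letters and not use.

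Library totals ran from 438648 to 539381 counts in DRQ and from 361792 to 543892 in PBS, and a count of 0 allowed a level of up to 5.73 to 9.01 CPM (counts per 1e6 counts; counting error only). CPM are counts of a gene relative to all counts of tested genes in its library, scaled by TMM factors (edgeR's correction for library composition). The counts come from transcript ends and were not divided by length. Where genes are ordered or given as a share of a sum, this refers to CPM and is not read as numbers of transcripts. The libraries held DC transcripts, and 6 of 7 DC markers were counted in all 8, with Zbtb46 at 0 in some. Transcripts of natural killer (NK) cells were also abundant: all 8 NK markers were counted in every library, and they summed to 9669 to 15133 CPM in DRQ and 11473 to 16342 CPM in PBS. Of the type 1 conventional DC markers, Xcr1 and Clec9a were not analysed here. Fewer cells of a type and less RNA per cell cannot be told apart in such bulk samples, nor can it be told which cells a transcript came from.

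The comparison of DRQ with PBS asks what inhibition of CD74 does to these transcripts in tumour DCs. edgeR's quasi-likelihood test called 0 of the 9 tested genes at a Benjamini-Hochberg adjusted p under 0.05, a threshold passed by 0.0325% of all genes tested. limma-voom also called 0 of the 9, and DESeq2 called 0 of the 8 to which it gave an adjusted p, all but Bcl2a1b. Unadjusted p was under 0.05 for 2 of 9, Cdkn1a and Bcl2a1b, both higher in DRQ. Over all genes 7.26% did so, 3.98% higher and 3.28% lower in DRQ. The groups lay fully apart, with no overlap of libraries, for Mcl1 and Mdm2, both higher in DRQ; over all genes this held for 4.32%, 2.14% higher and 2.18% lower. Estimates were above 0 for 5 of the 9 genes, against 48.4% of all genes, with a median log2 fold change of 0.10, against -0.01 over all genes. With 9 genes these shares rest on 2 genes each, and the genes were chosen with earlier results of these data known. The plot of CPM by library shows the values of all 10.

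**Figure D1:**
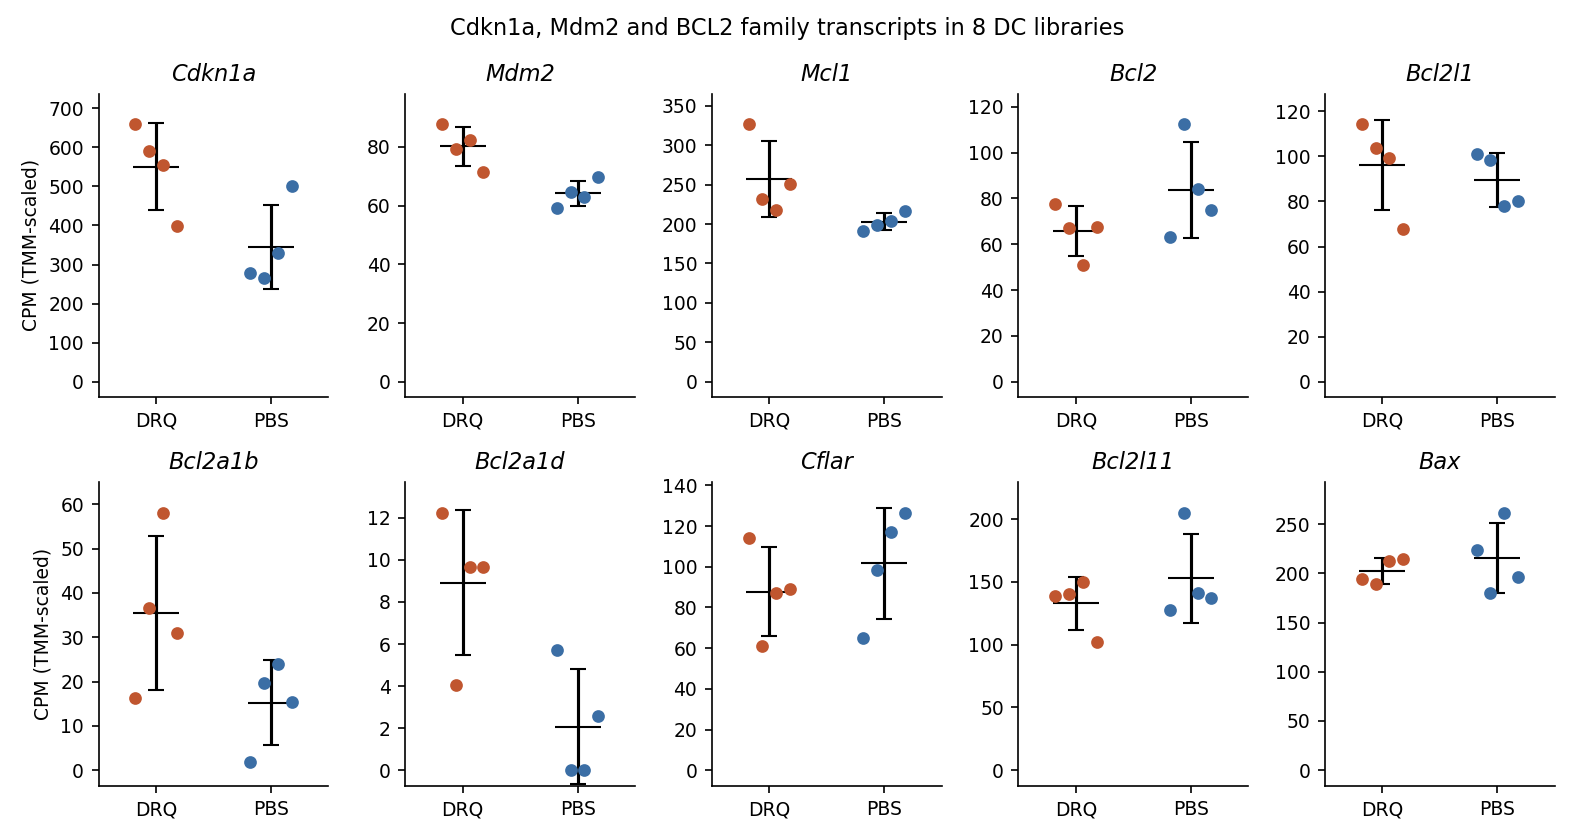
CPM (TMM-scaled, linear axis) of each gene in 4 DRQ and 4 PBS libraries, replicates 1 to 4 from left to right; points are libraries, horizontal lines the mean and whiskers ± SD (n = 4 each). For Mcl1 and Mdm2 every DRQ library lay above every PBS library, while Cdkn1a overlapped through PBS replicate 4 and DRQ replicate 4.

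Cdkn1a (ENSMUSG00000023067) had the smallest p of the 9 tested genes. It stood at 659, 592, 554 and 398 CPM in DRQ replicates 1 to 4, against 279, 267, 330.4 and 501 CPM in PBS replicates 1 to 4. The groups overlapped through 1 library on each side: DRQ replicate 4 lay under PBS replicate 4 and above the other 3 PBS libraries. The mean was 551 ± 111 CPM in DRQ and 344 ± 108 CPM in PBS (SD, n = 4 each), and edgeR's log2 fold change was 0.68 ± 0.19 (SE). This ranked 35 by p among the 6156 genes and did not pass (adjusted p = 0.248, edgeR with Benjamini-Hochberg adjustment). Without PBS replicate 4 it was called, at 0.91 (adjusted p = 0.0271 by the same test), and that was the only one of its 18 alternatives to call it. Across all 18 the estimate stayed above 0, between 0.51 and 0.91, with adjusted p from 0.0271 to 0.631. DESeq2 gave 0.68 with adjusted p = 0.153.

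Mdm2 (ENSMUSG00000020184), which encodes the ubiquitin ligase that degrades p53, was higher in DRQ by a smaller margin. Its levels were 87.7, 79.3, 82.3 and 71.5 CPM in DRQ replicates 1 to 4, against 59.2, 64.6, 63.1 and 69.7 CPM in PBS replicates 1 to 4. The lowest DRQ library exceeded the highest PBS library, also in CPM on library totals and in the authors' normalized table. Each library held between 21 and 43 counts of Mdm2, and the estimate was little larger than its SE (log2 fold change 0.32 ± 0.26, adjusted p = 0.847, edgeR with Benjamini-Hochberg adjustment).

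The other genes of the p53 pathway list lay on both sides of 0. Of 28 listed symbols besides Cdkn1a, Mdm2 and Bax, 24 had a row and 11 were tested; 0 were called, and unadjusted p was under 0.05 for 1, which was higher. Estimates were above 0 for 4 and below 0 for 7, with a median of -0.10. The gene higher at that level was Gadd45b, a stress-response gene that NF-kB signalling also induces. It stood at 930, 812, 728 and 692 CPM in DRQ replicates 1 to 4, against 724, 517, 505 and 545 CPM in PBS replicates 1 to 4 (log2 fold change 0.46 ± 0.15, adjusted p = 0.333, edgeR with Benjamini-Hochberg adjustment). PBS replicate 1 lay above DRQ replicate 4, so the groups overlapped. Btg2, an antiproliferative p53 target, averaged 265 ± 32.7 CPM in DRQ and 265 ± 45.0 CPM in PBS (SD, n = 4 each). Trp53 itself stood at a log2 fold change of -0.21 ± 0.24, Bbc3, which encodes the BH3-only killer PUMA, at -0.14 ± 0.32, and the stress gene Ddit4 at -0.16 ± 0.20. Besides Gadd45b, the genes above 0 were Plk3 at 0.13 ± 0.24, Sesn2 at 0.09 ± 0.38 and Gadd45a at 0.02 ± 0.35.

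Among CDK inhibitors besides Cdkn1a, 2 of 6 symbols were tested and 0 were called. Cdkn2d, which encodes p19-INK4d, averaged 128 ± 11.5 CPM in DRQ and 137 ± 15.2 CPM in PBS, and Cdkn2c, which encodes p18-INK4c, 25.1 ± 10.8 and 34.9 ± 25.4 CPM (SD, n = 4 each). Neither passed at an unadjusted p under 0.05, and Cdkn2c ran from 2.58 CPM in PBS replicate 4 to 56.2 CPM in PBS replicate 2.

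Of the pro-survival genes, Mcl1 and the Bcl2a1 copies were higher in DRQ libraries, Bcl2l1 differed little and Bcl2 and Cflar had estimates below 0; none was called. Mcl1 (ENSMUSG00000038612) encodes a short-lived guardian that many immune cells need. It stood at 326, 232, 218 and 251.2 CPM in DRQ replicates 1 to 4, against 191, 199, 204 and 217 CPM in PBS replicates 1 to 4. Every DRQ library lay above every PBS library, but the nearest pair, DRQ replicate 3 at 217.8 CPM and PBS replicate 4 at 216.9 CPM, nearly touched. The mean was 257 ± 48.3 CPM in DRQ and 203 ± 10.8 CPM in PBS (SD, n = 4 each). Its log2 fold change of 0.34 ± 0.18 did not pass (adjusted p = 0.698, edgeR with Benjamini-Hochberg adjustment) and was 0.20 without DRQ replicate 1.

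Bcl2a1b (ENSMUSG00000089929) had 8, 18, 24 and 16 counts in DRQ replicates 1 to 4, against 1, 7, 8 and 6 counts in PBS replicates 1 to 4. Bcl2a1d (ENSMUSG00000099974) had 6, 2, 4 and 5 counts in the DRQ libraries, against 3, 0, 0 and 1 in the PBS libraries, and was too low for the filter. For each copy alone the groups overlapped. Added together, as their shared sequence asks, the copies had 14, 20, 28 and 21 counts in DRQ replicates 1 to 4, against 4, 7, 8 and 7 counts in PBS replicates 1 to 4. No PBS library reached the lowest DRQ library. Over all genes tested, groups lay fully apart with DRQ higher for 2.14%. In CPM the sum was 44.4 ± 16.6 in DRQ and 17.3 ± 6.95 in PBS (SD, n = 4 each).

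The summed Bcl2a1 row, formed after the values had been seen, had a log2 fold change of 1.38 ± 0.44 with 71 genes at a smaller p. It did not pass (adjusted p = 0.333, edgeR with Benjamini-Hochberg adjustment). In its 18 alternative fits it stayed between 1.09 and 1.81 with adjusted p from 0.236 to 0.670, and DESeq2 gave it no adjusted p. Bcl2a1b alone stood at 1.27 ± 0.54 (adjusted p = 0.596, edgeR with Benjamini-Hochberg adjustment), at 0.83 without PBS replicate 1, and at 2.11 with PBS libraries 2 and 3, the shallowest, removed together.

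Bcl2 (ENSMUSG00000057329), the founding member of the family, pointed the other way. It stood at 77.5, 67.1, 50.8 and 67.6 CPM in DRQ replicates 1 to 4, against 63.0, 112, 84.1 and 74.9 CPM in PBS replicates 1 to 4, so the groups overlapped. Its log2 fold change of -0.33 ± 0.28 leaned on PBS replicate 2: it was -0.15 without that library and -0.06 with PBS libraries 2 and 3 removed together. Bcl2l1 (ENSMUSG00000007659), which encodes BCL-XL, averaged 96.2 ± 20.05 CPM in DRQ and 89.4 ± 12.0 CPM in PBS (SD, n = 4 each). Its log2 fold change was 0.10 ± 0.25, and ran from 0.00 without DRQ replicate 1 to 0.24 without DRQ replicate 4. Cflar (ENSMUSG00000026031), whose product c-FLIP blocks caspase-8 at death receptors, averaged 87.8 ± 21.7 CPM in DRQ and 102 ± 27.2 CPM in PBS (SD, n = 4 each; log2 fold change -0.20 ± 0.27), and its estimate ran from -0.38 without PBS replicate 1 to -0.06 without DRQ replicate 2. For these 3 genes the adjusted p was 0.856, 0.966 and 0.926, edgeR with Benjamini-Hochberg adjustment.

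The pro-death genes Bcl2l11 and Bax had estimates below 0 that were smaller than their errors. Bcl2l11 (ENSMUSG00000027381), which encodes BIM, stood at 139, 140.3, 150.03 and 102 CPM in DRQ replicates 1 to 4, against 128, 205, 141 and 137 CPM in PBS replicates 1 to 4. PBS replicate 2 was the highest library and DRQ replicate 4 the lowest, with the other 6 between 128 and 150.03 CPM. Its log2 fold change was -0.20 ± 0.22, and -0.02 without PBS replicate 2. Bax (ENSMUSG00000003873) averaged 203 ± 13.0 CPM in DRQ and 215 ± 35.7 CPM in PBS (SD, n = 4 each; log2 fold change -0.09 ± 0.18), and its DRQ libraries, at 189 to 215 CPM, lay inside the PBS range of 180 to 261 CPM. The adjusted p was 0.906 for Bcl2l11 and 0.959 for Bax (edgeR with Benjamini-Hochberg adjustment).

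The remaining BH3-only and effector genes that were tested also had small negative values. Of 11 listed symbols besides Bcl2l11 and Bax, 9 had a row and 5 were tested. All 5 had estimates below 0, with 0 called and 0 at an unadjusted p under 0.05, and a median of -0.14. Of the genes too low to test, Bnip3 (21.1 against 18.6 CPM) and Bok (15.3 against 14.4 CPM) had higher means in DRQ. Bmf (3.63 against 12.0 CPM) and Pmaip1 (16.9 against 21.2 CPM) had lower ones. Bak1, the effector related to Bax, averaged 149 ± 31.4 CPM in DRQ and 157 ± 15.7 CPM in PBS, and Bad, a BH3-only gene controlled by growth factor signals, 52.1 ± 6.001 and 66.2 ± 9.83 CPM (SD, n = 4 each). Bid, which links death receptors to mitochondria, had the lowest value of the 5, at -0.36 ± 0.33.

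**Figure D2:**
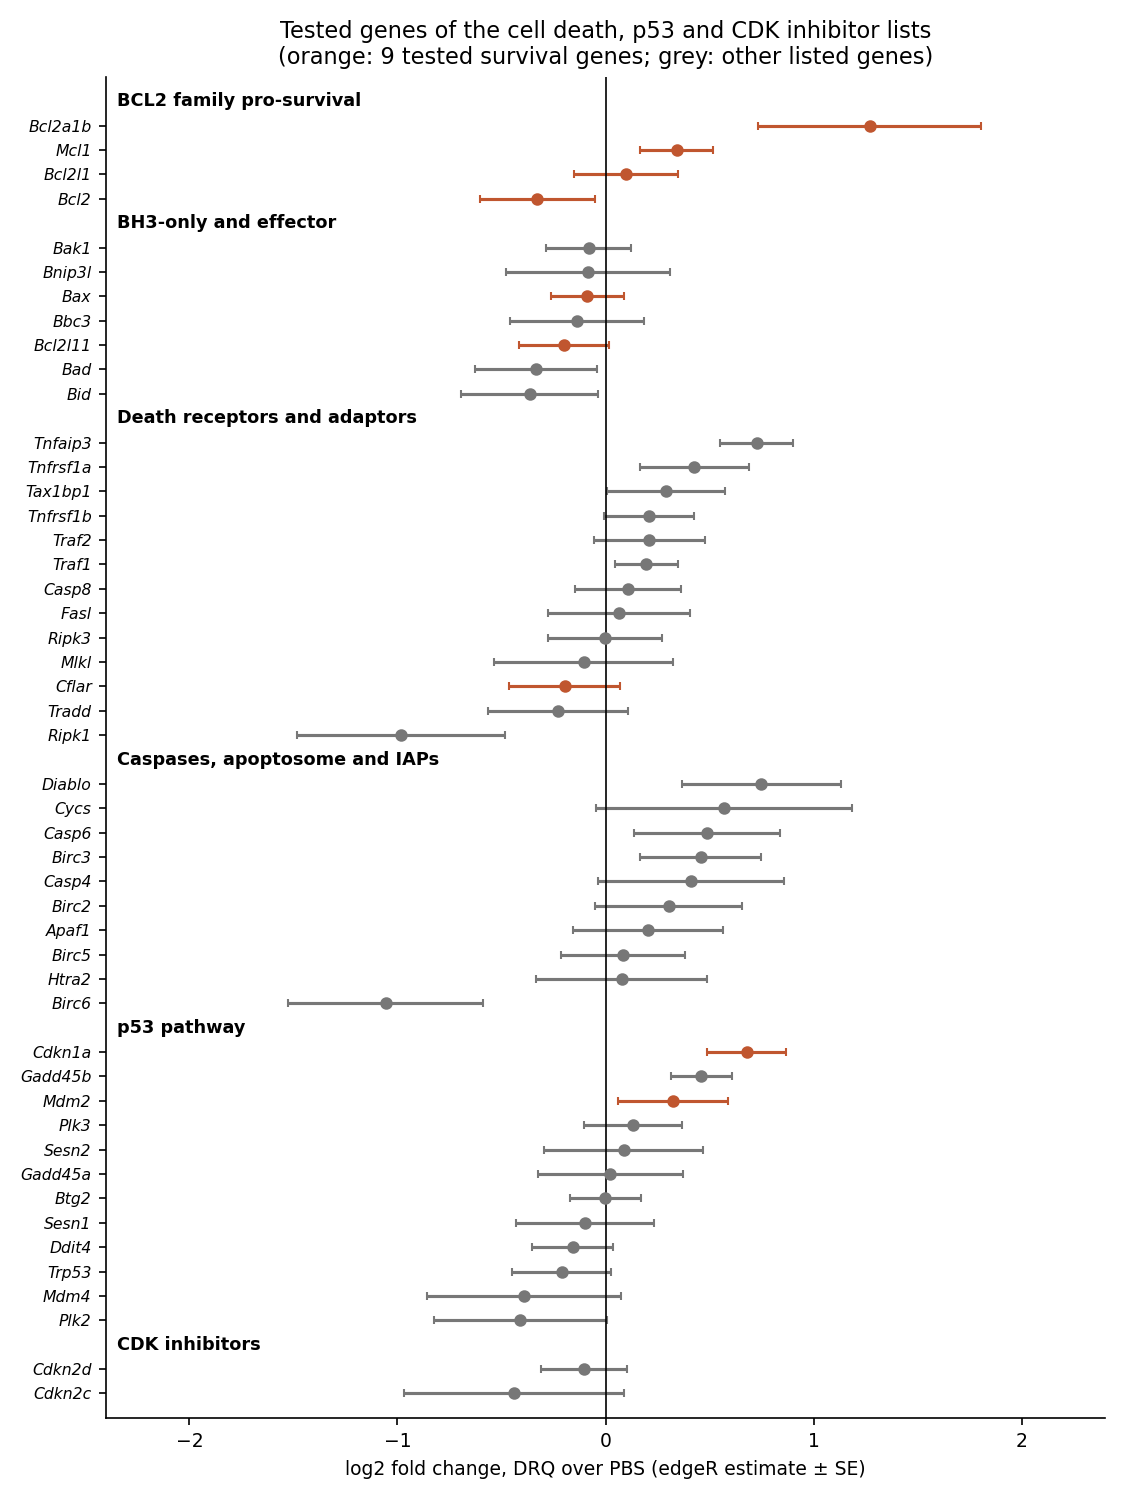
edgeR log2 fold change of DRQ over PBS (x axis, points with SE whiskers) for each tested gene of 6 lists, a gene of several lists being drawn once; orange marks the 9 tested survival genes and grey the other 39 listed genes. All 7 tested BH3-only and effector genes stand left of 0. SE whiskers stay clear of 0 for genes on both sides, among them Tnfaip3, Cdkn1a, Gadd45b, Bcl2a1b and Mcl1 on the right and Birc6 and Bcl2 on the left. No gene drawn passed the adjusted threshold.

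Pro-survival transcripts were set against pro-death transcripts within each library. The 6 pro-survival genes summed to 661, 504, 523 and 516 CPM in DRQ replicates 1 to 4, against 428, 528, 508 and 516 CPM in PBS replicates 1 to 4. Bcl2l11 and Bax summed to 332, 329, 363 and 317 CPM in the DRQ libraries, against 351, 385, 403 and 333 CPM in the PBS libraries. Both sums overlapped between the groups. The ratio of the first sum to the second was 1.99, 1.53, 1.44 and 1.63 in DRQ replicates 1 to 4, against 1.22, 1.37, 1.261 and 1.55 in PBS replicates 1 to 4, or 1.65 ± 0.24 and 1.35 ± 0.15 (SD, n = 4 each). DRQ replicates 2 and 3 lay below PBS replicate 4, so the ratios overlapped as well. No test was made of this score. The mean difference of the log2 ratio was 0.28, and 0.15 without Mcl1, which made up 41.7% to 49.4% of the pro-survival sum in DRQ and 37.8% to 44.6% in PBS.

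**Figure D3:**
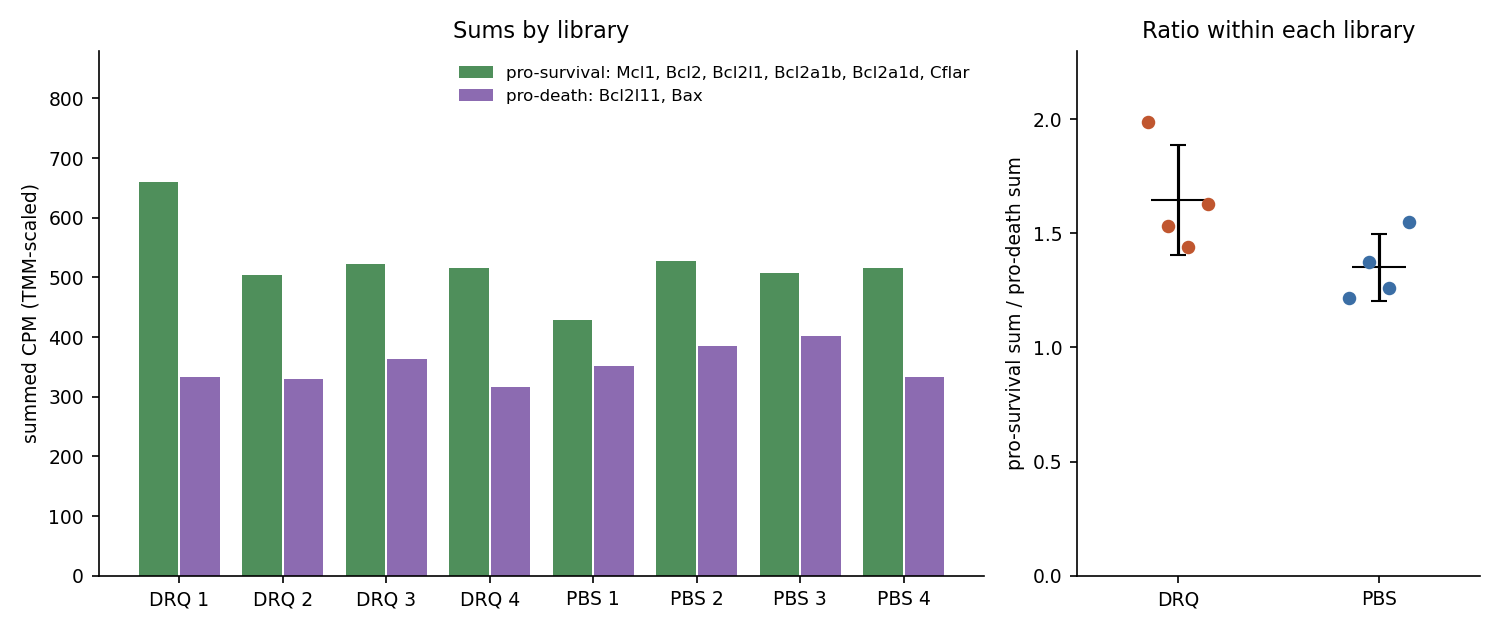
Left, summed CPM of the 6 pro-survival and 2 pro-death genes in each library (bars from 0); right, their ratio in each library, with the group mean and ± SD (n = 4 each). DRQ replicate 1 has the highest ratio, 1.99, while DRQ replicates 2 and 3 lie under PBS replicate 4 at 1.55.

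The guardians were also set against each other. Within a library the ratio of Mcl1 to Bcl2 counts was 4.21, 3.45, 4.29 and 3.71 in DRQ replicates 1 to 4, against 3.03, 1.78, 2.43 and 2.90 in PBS replicates 1 to 4. Every DRQ library lay above every PBS library. This pair was singled out after the values had been seen and was not tested. Mcl1 alone already lay fully apart, as did 4.32% of all genes tested, and the share among gene pairs was not computed. The ratio of Mcl1 to Bcl2l11 was 1.98 ± 0.50 in DRQ and 1.37 ± 0.27 in PBS, and that of Bcl2 to Bcl2l11 0.51 ± 0.14 and 0.55 ± 0.04 (SD, n = 4 each); in both the groups overlapped. Ratios of Cdkn1a to Mdm2 (6.82 ± 0.91 and 5.32 ± 1.33) and of Bcl2l1 to Bax (0.48 ± 0.12 and 0.43 ± 0.10) overlapped as well.

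Death receptors and their adaptors, a list of 16 symbols besides Cflar, had 12 tested members. Of these edgeR called 0, unadjusted p was under 0.05 for 1, which was higher, and 8 had estimates above 0 (median 0.15). The higher gene was Tnfaip3, which encodes A20, an inhibitor of NF-kB that also restrains death signalling. It stood at 377, 281, 346 and 259 CPM in DRQ replicates 1 to 4, against 187, 171, 213 and 191 CPM in PBS replicates 1 to 4, with the groups fully apart. Its log2 fold change was 0.73 ± 0.17 (adjusted p = 0.127, edgeR with Benjamini-Hochberg adjustment), and DESeq2 called it at an adjusted p of 0.0497. Traf1, an NF-kB target that joins TNF receptor complexes, averaged 405 ± 42.4 CPM in DRQ and 353 ± 39.6 CPM in PBS (SD, n = 4 each; log2 fold change 0.20 ± 0.15).

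Caspases, apoptosome parts and inhibitor of apoptosis proteins (IAPs) had 10 of 17 symbols tested and 0 called. Estimates were above 0 for 9 of the 10 (median 0.36), and 0 of the 9 passed at an unadjusted p under 0.05. The IAP gene Birc3, an NF-kB target, averaged 95.2 ± 35.4 CPM in DRQ and 68.7 ± 18.4 CPM in PBS (SD, n = 4 each). Htra2, which encodes a mitochondrial protease, averaged 78.4 ± 35.8 CPM in DRQ and 73.8 ± 40.2 CPM in PBS (SD, n = 4 each), and its estimate of 0.08 ± 0.41 was -0.25 without PBS replicate 4, its lowest library. Birc6, which encodes a giant IAP, was the 1 gene below 0 and had an unadjusted p of 0.0318 by edgeR, at 16.1 ± 7.75 CPM in DRQ and 32.8 ± 12.2 CPM in PBS (SD, n = 4 each; log2 fold change -1.06 ± 0.47, adjusted p = 0.641, edgeR with Benjamini-Hochberg adjustment).

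Over all 39 tested genes of the lists that were not among the 10, edgeR called 0, and 3 (7.69%) passed at an unadjusted p under 0.05, against 7.26% of all genes. Their median log2 fold change was 0.07.

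The marker lists were summed in the same libraries. The 6 mature DC markers, all counted in every library, summed to 740.2 to 1249 CPM in DRQ and 298 to 622 CPM in PBS, and the 7 DC markers to 13352 to 15690 CPM in DRQ and 7050 to 12781 CPM in PBS without overlap between groups in either sum. Within the DC list Cst3, Cd74, H2-Aa and H2-Ab1 made up most of the sum. Cd74, H2-Aa and H2-Ab1 lay fully apart, higher in DRQ, as did 2.14% of all genes tested, and none of them passed the adjusted threshold. Flt3, at 49.0 against 32.5 CPM, Zbtb46, at 10.2 against 2.10, and Cst3, at 4117 against 3039, had higher means in DRQ but overlapped. Itgax alone had a lower mean in DRQ, at 186 ± 30.5 CPM against 208 ± 39.8 CPM in PBS (SD, n = 4 each). The sums for DC subsets overlapped between the groups. Type 1 markers, 4 of 6 analysed, summed to 1956 to 2671 CPM in DRQ and 1471 to 2436 CPM in PBS. The 6 type 2 markers summed to 226 to 477 CPM in DRQ and 201 to 258 CPM in PBS. Within the type 2 list, Mgl2, Clec10a and Cd209a lay fully apart, each higher in DRQ, while Sirpa, Irf4 and Itgam overlapped. The share of 2.14% over all genes tested does not cover Clec10a and Cd209a. Mgl2 averaged 93.4 CPM in DRQ and 26.99 CPM in PBS. Its log2 fold change was 1.78 ± 0.41 (adjusted p = 0.127, edgeR with Benjamini-Hochberg adjustment). Clec10a averaged 43.96 against 8.64 CPM and Cd209a 35.2 against 10.6 CPM, and neither passed the filter on low counts. The sums of other cell types overlapped as well. The 8 T cell markers summed to 1241 to 1525 CPM in DRQ and 1050 to 1553 CPM in PBS. Lck was the most abundant, at a mean of 675 CPM in DRQ and 693 CPM in PBS. Unadjusted p by edgeR was under 0.05 for Cd3d, Trac, Cd4 and Cd5, all higher in DRQ. Their means were 132 against 73.2, 242 against 162, 99.9 against 50.7 and 113 against 57.5 CPM. Cd8a, at 41.1 against 64.3 CPM, and Cd3e, at 41.4 against 53.2 CPM, were lower in DRQ. Each T cell marker overlapped between the groups and none passed the adjusted threshold. Neutrophils, which also transcribe Mcl1 and Bcl2a1 genes, had 4 of 6 markers analysed, at 69.2 to 390.4 CPM in DRQ and 168 to 1564 CPM in PBS, with Csf3r and Retnlg at 0 in some libraries. Mmp9 made up most of this sum, at 116 ± 96.5 CPM in DRQ and 554 ± 670 CPM in PBS (SD, n = 4 each). Means of the other neutrophil markers were higher in DRQ: S100a9 at 22.6 against 8.19 CPM, Retnlg at 43.3 against 27.1 and Csf3r at 7.17 against 6.29. The 7 monocyte and macrophage markers, with Adgre1 at 0 in some libraries, summed to 329 to 1138 CPM in DRQ and 359 to 621 CPM in PBS. Of these, Lyz2 alone had an unadjusted p under 0.05 by edgeR, at a mean of 118 CPM in DRQ and 62.9 CPM in PBS. Its groups overlapped (log2 fold change 0.87 ± 0.28, adjusted p = 0.333, edgeR with Benjamini-Hochberg adjustment). Only Ly6c2 had a lower mean in DRQ, at 52.5 against 59.5 CPM. Epithelial markers, 4 of 6 analysed with Epcam and Krt18 at 0 in some libraries, summed to 30.6 to 157 CPM in DRQ and 120.2 to 247 CPM in PBS; Krt8 alone, at 20.4 to 109 CPM in DRQ and 111 to 194 CPM in PBS, did not overlap. Of 5 B cell markers 2 were analysed, Ighm and Cd79b, the second at 0 in some libraries. They summed to 278 to 502 CPM in DRQ and 198 to 308 CPM in PBS. Ighm made up most of this sum, at a mean of 374 CPM in DRQ and 255 CPM in PBS, with overlap. Its log2 fold change was 0.55 ± 0.18 (unadjusted p = 0.00553, adjusted p = 0.370, edgeR with Benjamini-Hochberg adjustment). The part of these marker differences in the values of Cdkn1a, Mcl1, Mdm2, the Bcl2a1 copies and Tnfaip3 was not tested.

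The genes whose levels followed Cdkn1a most closely were sought among the 3597 other genes with a mean of at least 50 CPM, by the root-mean-square difference of log2(CPM + 1) profiles centred on their own mean over the 8 libraries. Prr7 came first at 0.10, Dgat1, which encodes an enzyme of triglyceride synthesis, at 0.13 and Dusp5, a phosphatase gene that limits ERK signalling, at 0.19, where the median over all candidates was 0.56. Dgat1 stood at 347, 281, 269 and 232 CPM in DRQ replicates 1 to 4, against 149, 121, 147 and 229.8 CPM in PBS replicates 1 to 4. Like Cdkn1a, all 3 were lowest of the DRQ libraries in replicate 4 and highest of the PBS libraries in replicate 4. Such a shared order is built into their choice by profile over these same libraries and is no separate result. For Mcl1 the closest were B4galt5, Wdr1 and Sbds, each at 0.13, with a median of 0.39 over all candidates.

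**Figure D4:**
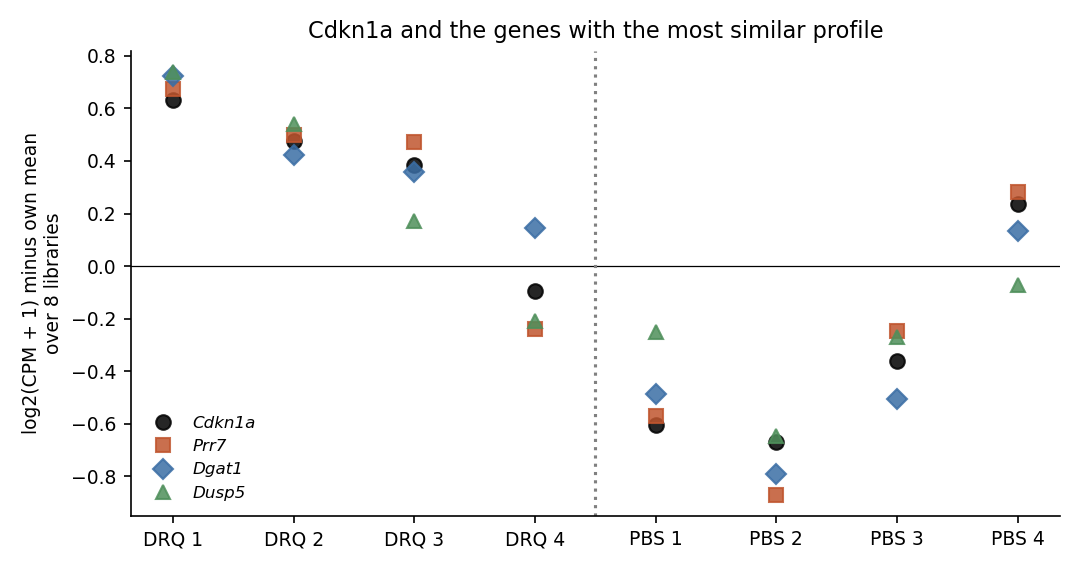
log2(CPM + 1) of Cdkn1a, Prr7, Dgat1 and Dusp5 minus each gene's own mean over the 8 libraries (y axis, log2 scale), by library; the dotted line parts DRQ from PBS libraries. All 4 genes are highest in DRQ replicate 1 and lowest in PBS replicate 2, a likeness by which Prr7, Dgat1 and Dusp5 were chosen.

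Among themselves the 10 genes did not share a single order of libraries. DRQ replicate 1 was the highest DRQ library for 7 of the 10 genes, among them Cdkn1a, Mcl1, Mdm2 and Bcl2l1, and the lowest for Bcl2a1b. DRQ replicate 4 was the lowest DRQ library for 4 genes, Cdkn1a, Mdm2, Bcl2l1 and Bcl2l11. In PBS, replicate 1 was lowest for 6 of the 10, and replicate 4 was highest for Cdkn1a, Mcl1, Mdm2 and Cflar.

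**Figure D5:**
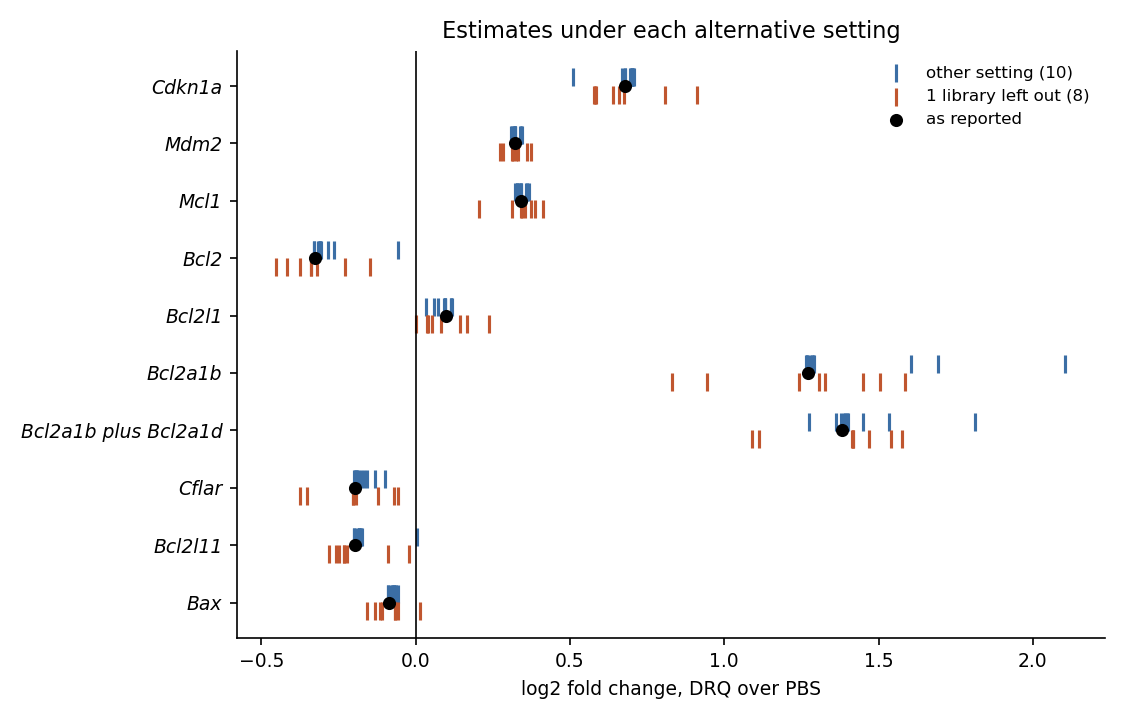
Log2 fold change of DRQ over PBS for each tested gene and for the summed Bcl2a1 copies (black dots), with blue ticks for 10 other settings and orange ticks for 8 fits with 1 library left out. Cdkn1a, Mdm2, Mcl1 and the Bcl2a1 values stay right of 0 throughout, whereas ticks of Bcl2l1, Bcl2l11 and Bax reach 0.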

How the data were processed

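Libraries were made by bulk MARS-seq, which tags transcript ends with UMIs, per the labels' protocols. Tools named without a role in the submitters' processing notes are STAR 2.7.3a, HTSeq, cutadapt, DESeq2 1.26.0, DESeq and bcl2fastq 2.20.0.422, with build GRCm39. The authors deposited whole-number counts per gene and a normalized signal, which equals counts over DESeq2's size factors within 0.005. The sources used here do not give UMI collapsing or strand handling. Symbols were matched for 10788 of 10825 genes, and genes without one held 0.186% of counts.

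The test of these counts was edgeR 4.0.16 (R 4.3.3) with TMM factors, genes kept by filterByExpr, and its robust quasi-likelihood test, Benjamini-Hochberg adjusted over 6156 genes (which hold 94.9% of counts, threshold 0.05). The common biological coefficient of variation was 0.235. DESeq2 1.42.0 and limma 3.58.1 (log2 values, pseudocount 1 for the signal) served as alternatives. The 10 genes and the lists were chosen with earlier results of these data known, and 1 listed gene is not reported here. Named genes were the 10, listed genes with unadjusted p under 0.05 or groups fully apart, the 2 most abundant per list, and the 3 genes nearest in profile to Cdkn1a and to Mcl1. Trp53, Bbc3, Ddit4, Bid, Plk3, Sesn2 and Gadd45a were added after their values were seen. So were the single markers of cell types and the other listed genes too low to test that are named. The scripts were tested on simulated data. Libraries of a group differed by more than sampling noise, with chi-square over its degrees of freedom at 2.73 to 4.04.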

Additional observations from a re-analysis of the deposited data

How the results depend on the processing

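Estimates of the 9 tested genes kept their direction and their side of the threshold in 157 of the 161 fits that gave an adjusted p. The others were Cdkn1a without PBS replicate 4 (0.91, newly called) and 3 reversals next to 0: Bcl2l1 at -0.00049 without DRQ replicate 1 (up to 0.236 with 1 library left out), Bax at 0.0126 without PBS replicate 3 (down to -0.157), and Bcl2l11 at 0.0028 with PBS libraries 2 and 3 removed together (added once the data had been seen). So the number of the 10 called was 0 to 1 with 1 library left out. Of the 11 other named genes, 180 of 196 estimates with an adjusted p held. DESeq2 called 1 of the listed other genes, Tnfaip3. Htra2 ran from -0.248 to 0.341 with 1 library left out and reversed without DRQ replicate 3 (-0.143), DRQ replicate 4 (-0.0994) and PBS replicate 4. Cdkn2c reversed to 0.069 with limma-voom, 0.17 with limma-voom and quality weights and 0.66 without PBS libraries 2 and 3. Btg2, at -0.00083 as reported, changed sign to 0.0214 with library totals, 0.0193 with no filter, 0.0168 with the deposited normalized table, 0.0149 with at least 5 CPM in 4 libraries, to 0.0062 with the replicate block, and ran from -0.0916 to 0.108 with 1 library left out. The cause of these changes was not tested.

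The count of all genes called, 2 with edgeR, was 7 with library totals, 8 with no filter, 15 with DESeq2 (of 3410 genes given an adjusted p), 4 with limma-voom with or without quality weights, 6 with a replicate block, 0 to 13 with 1 library left out (0 without DRQ replicate 3, 1 without DRQ replicate 1 or 2 or PBS replicate 1, 5 without DRQ replicate 4, 6 without PBS replicate 3 and 13 without PBS replicate 4), and 0 without PBS libraries 2 and 3. With the replicate block 0 of the 10 genes were called and Cdkn1a stood at 0.70. The shared replicate numbers did not show a clear pairing: deviations of same-numbered libraries correlated at -0.01 to 0.08 across genes, and 2 of 4 DRQ libraries correlated best with their own number. Replicates 1 (0.08) and replicates 3 (0.07) gave the highest correlations of any DRQ and PBS libraries. With so few libraries the check cannot decide on a partial pairing. The difference in the log2 ratio of sums stayed between 0.19 and 0.35 with 1 library left out. Bcl2a1d, with 21 counts in all, was tested only with no filter (1.82 ± 1.14 SE, adjusted p = 0.836 by edgeR) and with at least 5 CPM in 4 libraries (1.80 ± 1.00, adjusted p = 0.810).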
